A study of Caenorhabditis elegans with 12 samples.

Results

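The DBL-1 pathway is the BMP-like branch of TGF-beta signalling that sets body length in the nematode *Caenorhabditis elegans*. Its genes were followed here in wild type and in both *crh-1* mutants. The 10 genes were chosen by name, as the ligand gene *dbl-1*, its receptor genes *daf-4* and *sma-6*, the Smad genes *sma-2*, *sma-3* and *sma-4*, and the regulators and effectors *sma-9*, *sma-10*, *lon-1* and *lon-2*. All 10 were found among the 46748 genes of the count table, and all 10 were among the 14511 genes with enough counts to be tested. The choice followed the names and not a measured value, but earlier results of these data were known when it was made.

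RNA of whole day-1 adults was measured by poly(A)-selected RNA-Seq in 3 genotypes with 4 libraries each. Wild type was strain N2. The mutant *crh-1(syb385)* (strain VDL786) carries a deletion in an intron of *crh-1* that was made to remove circ-*crh-1*, the circular RNA of this gene, and the mutant *crh-1(n3315)* (strain MT9973) is labelled as a null allele of *crh-1*, which encodes the *C. elegans* CREB. All animals were synchronized with hypochlorite, hatched in M9 buffer, grown at the same temperature on *E. coli* OP50 and collected as adults by filtering. The labels name no FUdR, a drug that blocks reproduction, while the methods of the study describe its use from the L4 stage unless indicated otherwise, so its presence could not be settled. Each mutant is represented by a single strain, so an allele cannot be told apart from other differences in its strain background.

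DBL-1 is released mainly by neurons and acts on the hypodermis, the epidermal layer that secretes the cuticle. The ligand binds the type II receptor DAF-4 and the type I receptor SMA-6, which pass the signal to the receptor-regulated Smads SMA-2 and SMA-3 and the co-Smad SMA-4, and these enter the nucleus. Loss of the ligand, a receptor or a Smad makes a small (Sma) animal, whereas loss of the inhibitors LON-1 or LON-2 makes a long (Lon) one. *lon-1* is also known as a transcriptional target whose RNA is held down by the signal.

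Total counts ranged from 16348586 to 25369267 per library. The first 2 principal components held 37.4% and 17.6% of the variance, and wild-type replicates 1 and 3 lay at -43.7 and 44.4 on the second, with the other wild-type libraries at -12.9 and -20.6. Among the wild-type libraries, replicate 3 had the lowest value for 5 of the 10 pathway genes (*daf-4*, *sma-6*, *sma-2*, *sma-9* and *sma-10*), and replicate 1 had the highest for 5 of them. The targeted gene *crh-1* (WBGene00000793) was at 42.4 ± 4.06 CPM (counts scaled to a common library size, mean ± SD, n = 4) in wild type, 44.8 ± 1.41 in *crh-1(syb385)* and 50.1 ± 2.41 in n3315. With an intronic deletion in the former mutant and a count that was not lowered in the latter, this gene does not check either genotype label. Levels below are CPM normalized by the trimmed mean of M-values (TMM).

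In *crh-1(syb385)*, 4 of the 10 pathway genes changed against wild type at an adjusted p under 0.05 (edgeR quasi-likelihood test, Benjamini-Hochberg adjustment over all tested genes), beside 16.3% of all tested genes. *lon-1* was upregulated, as were 7.42% of all tested genes, and *sma-10*, *sma-2* and *sma-4* were downregulated, as were 8.88%. In the libraries labelled n3315, 4 of 10 changed as well, which is close to the 42.0% of all tested genes that passed. Here *lon-1* was upregulated, beside 20.3% of all tested genes, and *sma-2*, *sma-6* and *sma-10* were downregulated, beside 21.7%. Both comparisons share the same wild-type libraries, so *lon-1*, *sma-2* and *sma-10* passing in both is not a repeat in independent samples.

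**Figure D1:**
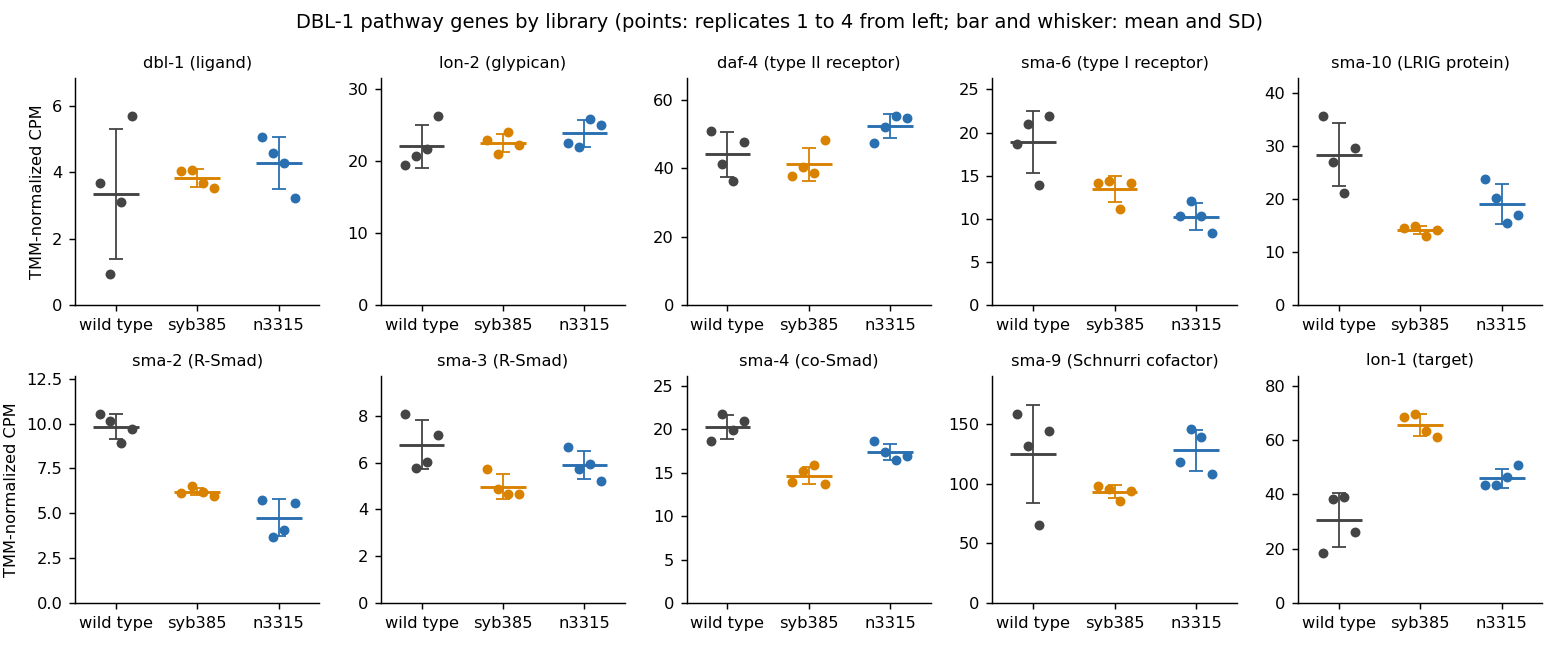
TMM-normalized CPM (y axis, from 0) of the 10 pathway genes in wild type, *crh-1(syb385)* and n3315 (x axis), with 1 point per library and the mean ± SD of 4 libraries. All mutant libraries lie above all wild-type libraries for *lon-1* (wild type up to 38.9, mutants from 43.4) and below them for *sma-2* (wild type from 8.93, mutants up to 6.51), whereas *dbl-1* and *lon-2* overlap between all genotypes.

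The ligand gene *dbl-1* (WBGene00000936, chromosome V, 6758135 to 6760409 on WBcel235, plus strand, 8 exon intervals) was the lowest of the 10 genes. Its level was 3.68, 0.93, 3.10 and 5.69 CPM in wild-type replicates 1 to 4, 4.03, 4.07, 3.67 and 3.55 CPM in *crh-1(syb385)*, and 5.05, 4.60, 4.28 and 3.22 CPM in the libraries labelled n3315. The wild-type libraries enclosed every mutant library, and the value of replicate 2 rested on 20 counts. The log2 fold change was 0.19 (SE 0.37, adjusted p = 0.777, edgeR) in *crh-1(syb385)* and 0.35 (SE 0.36, adjusted p = 0.467, edgeR) in n3315. With this spread in wild type, a difference in the ligand RNA was not detectable.

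*lon-2* (WBGene00003056, chromosome X, 4738867 to 4749083, minus strand, 12 exon intervals) encodes a glypican, a cell surface proteoglycan that binds the ligand and limits signalling. It was at 19.5, 20.7, 21.6 and 26.2 CPM in wild type, 22.9, 20.996, 24.01 and 22.1 CPM in *crh-1(syb385)*, and 22.5, 21.96, 25.8 and 24.98 CPM in n3315. The libraries of both mutants lay within the wild-type range. Its log2 fold changes were 0.03 (SE 0.12, adjusted p = 0.891, edgeR) in *crh-1(syb385)* and 0.11 (SE 0.12, adjusted p = 0.492, edgeR) in n3315. The sign of this small difference turned with the scaling: with total counts in place of TMM, its log2 fold changes were -0.12 and -0.07.

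Of the receptor genes, *sma-6* passed the test in n3315 and *daf-4* in neither mutant. *daf-4* (WBGene00000900, chromosome III, 5625014 to 5632319, plus strand, 11 exon intervals) encodes the type II receptor, which also serves the dauer ligand DAF-7. It was at 50.9, 41.4, 36.4 and 47.9 CPM in wild type, 37.7, 40.4, 38.5 and 48.3 CPM in *crh-1(syb385)*, and 47.5, 52.1, 55.3 and 54.8 CPM in n3315. All 3 genotypes overlapped in this gene. Neither mutant passed the test, at log2 fold changes of -0.10 (SE 0.12, adjusted p = 0.639, edgeR) and 0.25 (SE 0.12, adjusted p = 0.115, edgeR).

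*sma-6* (WBGene00004860, chromosome II, 6324484 to 6327356, plus strand, 12 exon intervals) encodes the type I receptor, the kinase that is specific to this branch. Wild type had 18.7, 21.03, 13.9 and 21.9 CPM, and *crh-1(syb385)* had 14.1, 14.4, 11.2 and 14.1 CPM. The libraries labelled n3315 had 10.4, 12.1, 10.3 and 8.33 CPM and lay below every wild-type library. *sma-6* was downregulated in n3315 by 0.88 on the log2 scale (SE 0.17, adjusted p = 0.000818, edgeR). In *crh-1(syb385)* the value of -0.49 on that scale (SE 0.17) missed the threshold at an adjusted p of 0.0594 (edgeR), and 3 of its 4 libraries lay just above wild-type replicate 3. Without that replicate the log2 fold change was -0.61 and passed at an adjusted p of 0.00609. It also passed with DESeq2, with upper-quartile factors, with total counts and with the length trend removed, so this gene lay at the edge of the threshold.

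*sma-10* (WBGene00020649, chromosome IV, 274570 to 279949, plus strand, 13 exon intervals) encodes a membrane protein of the LRIG family, with leucine-rich repeats and immunoglobulin domains, that promotes signalling at the receptors. It was at 35.5, 27, 21.2 and 29.5 CPM in wild type and at 14.5, 14.9, 13.0 and 14.2 CPM in *crh-1(syb385)*, where it was lower than in any wild-type library. The libraries labelled n3315 were at 23.8, 20.1, 15.4 and 16.9 CPM, with replicate 1 above wild-type replicate 3. *sma-10* was downregulated 2-fold in *crh-1(syb385)* (log2 fold change -1.001, SE 0.17, adjusted p = 0.00101, edgeR) and by 0.57 on the log2 scale in n3315 (SE 0.17, adjusted p = 0.0122, edgeR). The call in n3315 was lost without n3315 replicate 3, at an adjusted p of 0.0514.

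The Smad genes were below wild type in the mean of either mutant, with different members passing the test. *sma-2* (WBGene00004856, chromosome III, 8749771 to 8757069, plus strand, 10 exon intervals) encodes a receptor-regulated Smad. It was at 10.5, 10.2, 8.93 and 9.68 CPM in wild type, 6.15, 6.51, 6.19 and 5.99 CPM in *crh-1(syb385)*, and 5.73, 3.68, 4.05 and 5.57 CPM in n3315. All 8 mutant libraries were below all 4 wild-type libraries. *sma-2* was downregulated by 0.66 on the log2 scale in *crh-1(syb385)* (SE 0.18, adjusted p = 0.0197, edgeR) and by 1.05 in n3315 (SE 0.18, adjusted p = 0.000362, edgeR). The call in *crh-1(syb385)* was lost without its replicate 1 or its replicate 4, where the adjusted p reached 0.0599, and also without the filter on low counts. Of its exonic bases, 83 (5.65%) are shared with *aak-1* on the opposite strand, and since the strand setting of the counting is not given in the sources used here, reads on these bases could come from either gene.

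*sma-3* (WBGene00004857, chromosome III, 6860963 to 6863969, minus strand, 12 exon intervals), the other receptor-regulated Smad gene, was at 8.09, 5.78, 6.05 and 7.19 CPM in wild type, 5.75, 4.87, 4.67 and 4.65 CPM in *crh-1(syb385)*, and 6.65, 5.72, 5.96 and 5.21 CPM in n3315. The *crh-1(syb385)* libraries lay just below wild type, and those labelled n3315 overlapped it. Its log2 fold changes of -0.44 (SE 0.18, adjusted p = 0.112, edgeR) and -0.20 (SE 0.18, adjusted p = 0.395, edgeR) did not pass. *sma-4* (WBGene00004858, chromosome III, 5816203 to 5820203, plus strand, 12 exon intervals) encodes the co-Smad. It was at 18.6, 21.8, 19.9 and 20.9 CPM in wild type, 13.96, 15.2, 15.8 and 13.8 CPM in *crh-1(syb385)*, and 18.7, 17.4, 16.5 and 16.96 CPM in n3315. *crh-1(syb385)* was below wild type in every library, whereas n3315 replicate 1 overlapped wild-type replicate 1. *sma-4* was downregulated by 0.47 on the log2 scale in *crh-1(syb385)* (SE 0.12, adjusted p = 0.0139, edgeR). This call was lost without *crh-1(syb385)* replicate 4 at an adjusted p of 0.0522. It was also lost without the filter on low counts and in the fit on these 2 genotypes alone (adjusted p up to 0.0611, edgeR). In n3315 its log2 fold change was -0.22 (SE 0.12, adjusted p = 0.141, edgeR).

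*sma-9* (WBGene00004862, chromosome X, 10769288 to 10782962, plus strand, 23 exon intervals, 16 annotated transcripts) encodes a large zinc finger cofactor of the Smads, the homolog of *Drosophila* Schnurri. It was at 158, 132, 65.6 and 144 CPM in wild type, with replicate 3 far below the others. It was at 97.6, 95.7, 85.3 and 93.6 CPM in *crh-1(syb385)* and at 118, 146, 139 and 108 CPM in n3315. Both mutants lay inside the wild-type range. The log2 fold changes were -0.43 (SE 0.20, adjusted p = 0.156, edgeR) in *crh-1(syb385)* and 0.03 (SE 0.20, adjusted p = 0.917, edgeR) in n3315. Without wild-type replicate 3 the former was -0.64 and passed at an adjusted p of 0.000232. *sma-9* has the longest exonic sequence of the 10 genes (7800 nt), and with each library's trend of level on gene length removed, its log2 fold change in n3315 was -0.36 (adjusted p = 0.000606, edgeR), in the opposite direction.

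*lon-1* (WBGene00003055, chromosome III, 5474478 to 5478382, plus strand, 7 exon intervals) encodes a secreted protein of the cysteine-rich CRISP family that restrains body length downstream of the Smads. It was at 18.4, 38.3, 38.9 and 25.97 CPM in wild type, 68.3, 69.6, 63.3 and 60.9 CPM in *crh-1(syb385)*, and 43.5, 43.4, 46.3 and 50.8 CPM in n3315. Every library of either mutant was above every wild-type library. *lon-1* was upregulated 2.16-fold in *crh-1(syb385)* (log2 fold change 1.11, SE 0.18, adjusted p = 0.000808, edgeR) and 1.51-fold in n3315 (log2 fold change 0.60, SE 0.18, adjusted p = 0.0149, edgeR). With total counts in place of TMM, the rise in n3315 was 0.42 on the log2 scale and did not pass (adjusted p = 0.0694, edgeR), nor did it in a fit on the 8 libraries of these genotypes alone.

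**Figure D2:**
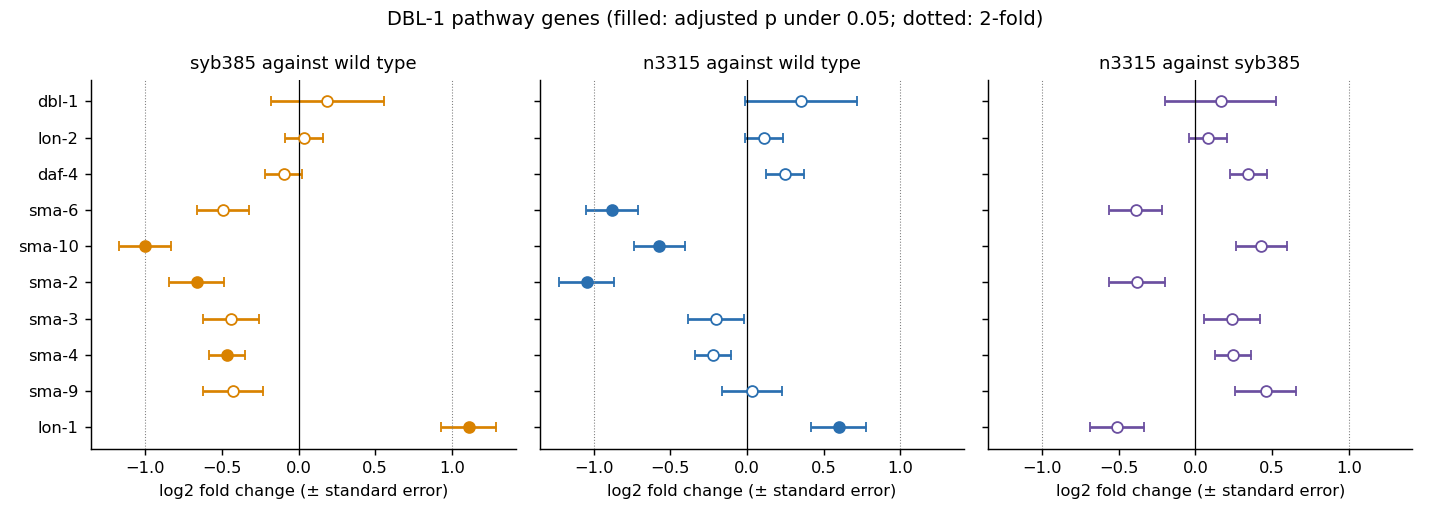
Log2 fold change with its standard error (x axis) of each pathway gene (y axis, from ligand to target) in the 3 comparisons. Filled points have an adjusted p under 0.05 (edgeR), and dotted lines mark 2-fold. Filled points number 4 in each mutant against wild type, with *lon-1* to the right of 0 and the others to the left, and 0 between the mutants.

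Past the 2-fold line were 2 of the 4 genes in *crh-1(syb385)*, *lon-1* and *sma-10*, where 6.72% of all tested genes passed both thresholds. In n3315 it was 1, *sma-2*, beside 15.4% of all tested genes. The median log2 fold change of the 10 genes was -0.44 in *crh-1(syb385)*, with -0.05 over all tested genes, and -0.09 in n3315, with -0.04 over all tested genes. The libraries of *crh-1(syb385)* did not overlap wild type for 5 of the 10 genes (*lon-1* higher, *sma-2*, *sma-3*, *sma-4* and *sma-10* lower), beside 18.7% of all tested genes (9.79% higher and 8.95% lower). In n3315 they did not overlap for *lon-1*, *sma-2* and *sma-6*, 3 of 10, beside 38.7% (20.5% higher and 18.2% lower).

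Between the mutants, 0 of the 10 genes passed (edgeR), while 18.0% of all tested genes did. At an unadjusted p under 0.05 there were 5, where all tested genes gave 32.8%. These were *lon-1* (log2 fold change of n3315 against *crh-1(syb385)* -0.51, SE 0.18, adjusted p = 0.0592, edgeR), *sma-6* (-0.39), *daf-4* (0.35), *sma-10* (0.43) and *sma-9* (0.46). DESeq2 passed 2 of the 10 (*daf-4* and *lon-1*), beside 22.7% of all tested genes, and limma-voom 1 (*lon-1*), beside 17.1%. A fit on the 8 mutant libraries alone passed all 5 of the genes just named, beside 37.7% of the genes it tested. Without wild-type replicate 3, whose spread enters the shared estimate, the same 5 genes passed, beside 29.9%. The libraries of the mutants did not overlap for *lon-1* and *sma-2*, lower in n3315, and for *sma-4*, *sma-9* and *sma-10*, higher in n3315, beside 33.5% of all tested genes without overlap (14.3% lower and 19.2% higher). In the main fit, a call such as that of *sma-6* in n3315 or *sma-4* in *crh-1(syb385)* was therefore not shown to belong to one mutant. Between the mutants, *sma-6* passed in 4 of 24 alternative settings and *sma-4* in 0.

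In CPM per kb of exon, which allows levels of different genes to be set side by side, *lon-1* was the highest of the 10 genes and *dbl-1* the lowest in all 3 genotypes. In wild type *lon-1* was at 25.8 ± 8.46 CPM per kb and *dbl-1* at 1.95 ± 1.14 (SD, n = 4). Between them came *sma-9* (16.03), *daf-4* (13.7), *lon-2* (11.4), *sma-4* (10.6), *sma-10* (9.76), *sma-6* (8.86), *sma-2* (6.70) and *sma-3* (5.15), in CPM per kb. In wild type only *sma-3* and *dbl-1* were neighbours whose libraries did not overlap. In *crh-1(syb385)*, *lon-1* reached 55.5 ± 3.47 CPM per kb and stood clear of *daf-4* at 12.8 ± 1.51, and *sma-10* came after *sma-6*, at 4.88 against 6.31 CPM per kb. In n3315, *lon-1* was at 39.0 ± 2.95 CPM per kb, and *sma-2* came after *sma-3*, at 3.24 against 4.47 CPM per kb. Neighbours whose libraries overlapped were *daf-4*, *sma-9* and *lon-2*, and *sma-2* and *sma-3*, in *crh-1(syb385)*. In n3315 they were *sma-9* and *daf-4*, then *sma-10*, *sma-6* and *sma-3* in turn, and *sma-2* and *dbl-1*.

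**Figure D3:**
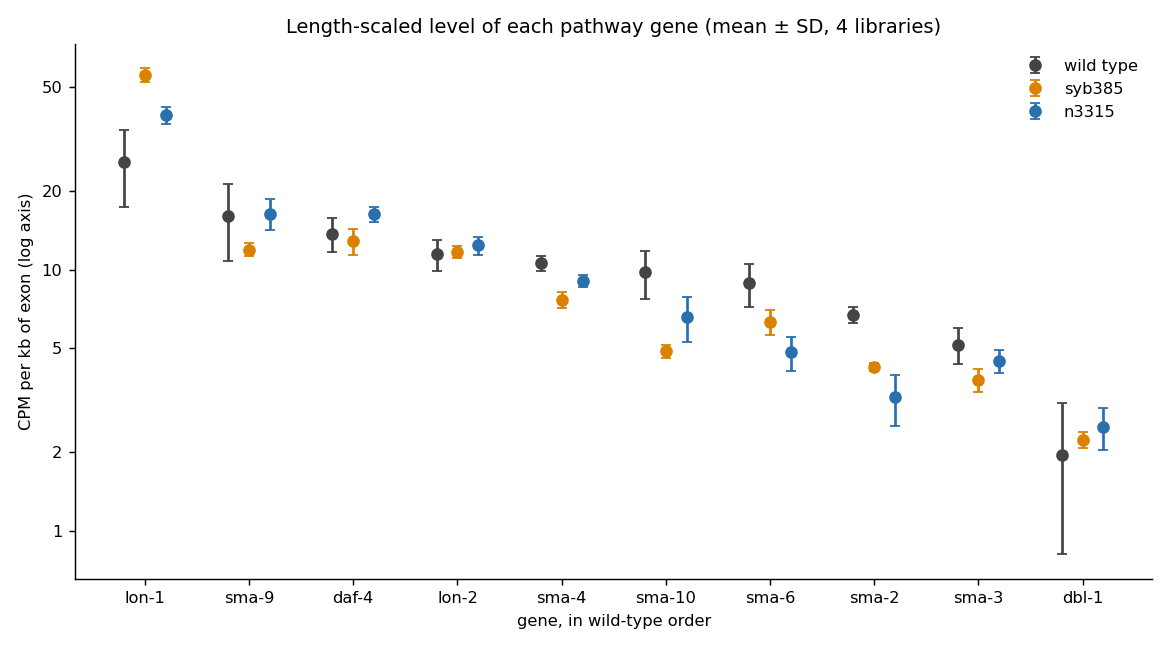
Level of each pathway gene in CPM per kb of exon (y axis, log scale; mean ± SD of 4 libraries), ordered along the x axis by its wild-type level, in the 3 genotypes. *lon-1* is the highest in each genotype (25.8, 55.5 and 39.0 CPM per kb) and *dbl-1* the lowest (1.95, 2.23 and 2.50 CPM per kb).

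Ratios of length-scaled RNA within a library do not depend on how libraries are scaled to each other. A trend of level on gene length within a library was not removed from them. These ratios were chosen after the values were seen and are given without a test. The ratio of *sma-6* to *daf-4*, the type I to the type II receptor gene, was 0.647 ± 0.099 in wild type, 0.495 ± 0.066 in *crh-1(syb385)* and 0.297 ± 0.054 in n3315 (SD, n = 4). The 4 libraries labelled n3315, at 0.229 to 0.350, were below all the others, while *crh-1(syb385)* at 0.437 to 0.564 touched the wild-type range of 0.554 to 0.766. The ratio of *sma-2* to *sma-3* was 1.32 ± 0.18 in wild type, 1.13 ± 0.11 in *crh-1(syb385)* and 0.729 ± 0.175 in n3315. *sma-2* was thus above its partner Smad gene in wild type and below it in n3315, per kb of exon. The ratio of *sma-2* to *sma-4* was 0.634 ± 0.070, 0.553 ± 0.030 and 0.356 ± 0.070 in the same order.

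**Figure D4:**
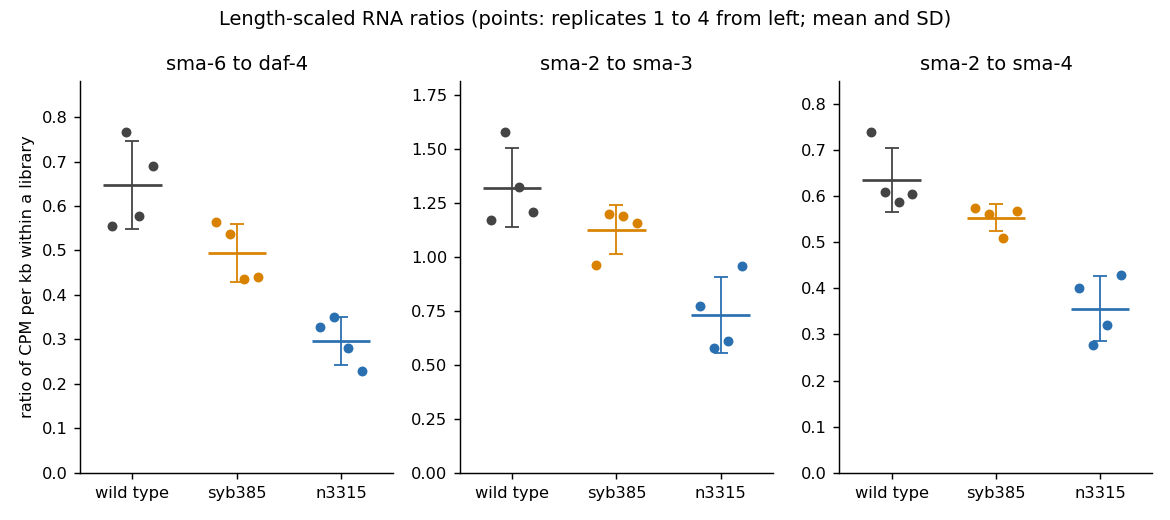
Ratio of CPM per kb of exon within a library (y axis, from 0) for *sma-6* to *daf-4*, *sma-2* to *sma-3* and *sma-2* to *sma-4* in the 3 genotypes (x axis), with 1 point per library and the mean ± SD. The libraries labelled n3315 lie lowest in each panel, at means of 0.297, 0.729 and 0.356.

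In a whole animal, fewer cells of a type and less RNA per cell cannot be told apart, so levels of tissue markers are given beside these results. Their counts, and those of the gene lists that follow, stand beside 7.42% of all tested genes higher and 8.88% lower in *crh-1(syb385)*, and 20.3% higher and 21.7% lower in n3315. Of 8 markers of the hypodermis, 1 rose and 2 fell in *crh-1(syb385)*, and 1 rose and 6 fell in n3315. Their summed level was 649 to 1177 CPM in wild type, 1586 to 1815 CPM in *crh-1(syb385)* and 1505 to 1906 CPM in n3315, most of it from the adult collagen gene *col-19*, the marker that rose. Of 8 neuronal markers, 0 rose and 2 fell in *crh-1(syb385)*, and 0 rose and 1 fell in n3315, with summed levels of 242 to 306, 245 to 266 and 252 to 286 CPM in the 3 genotypes. Of 6 markers of germline and oocytes, 2 rose in *crh-1(syb385)* and 5 in n3315, from a summed 2248 to 3678 CPM in wild type to 3696 to 4216 CPM and 4647 to 5035 CPM. Of 6 body wall muscle markers, 3 rose in *crh-1(syb385)* and 5 in n3315, and of 6 pharynx markers 0 changed in *crh-1(syb385)* and 4 in n3315 (2 higher, 2 lower). Of 6 intestinal markers found, 3 rose and 1 fell in *crh-1(syb385)* and 3 rose and 2 fell in n3315, with summed levels of 2037 to 3106 CPM in wild type, 2604 to 3550 CPM in *crh-1(syb385)* and 1303 to 1657 CPM in n3315. Of 5 tested markers each of sperm and of the zygotic embryo, 0 changed except 1 embryonic marker in n3315. No marker of these lists was at 0 in any genotype. The part of tissue makeup in the changes of the pathway genes was not tested.

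Of 11 other genes tied to DBL-1 signalling, 4 changed in *crh-1(syb385)* (1 upregulated, 3 downregulated) and 8 in n3315 (4 upregulated, 4 downregulated), at medians of -0.03 and -0.23 on the log2 scale. All tested genes passed at 16.3% and 42.0%. *adt-2*, an ADAMTS metalloprotease gene that affects cuticle and body length, was upregulated from 23.6 to 26.3 CPM in wild type to 41.5 to 54.1 CPM in *crh-1(syb385)* and 40.95 to 45.5 CPM in n3315. Its log2 fold changes were 0.90 (SE 0.11, adjusted p = 6.61e-05, edgeR) and 0.82 (SE 0.11, adjusted p = 3.37e-05, edgeR), with no overlap of libraries. *tsp-14*, a tetraspanin gene whose product promotes signalling at the cell surface, was downregulated by 0.69 on the log2 scale in *crh-1(syb385)* (adjusted p = 0.0291, edgeR) and by 1.08 in n3315 (adjusted p = 0.000673, edgeR). The call of *tsp-14* in *crh-1(syb385)* was lost without any of wild-type replicates 1, 2 and 4 and *crh-1(syb385)* replicates 1 and 4 (adjusted p up to 0.0927, edgeR). Without wild-type replicate 1 or 4 or *crh-1(syb385)* replicate 1 or 4, the count of the list in *crh-1(syb385)* was 2 in place of 4. *mab-31*, tied to DBL-1 signalling in male tail patterning, was downregulated by 0.75 in *crh-1(syb385)* (adjusted p = 0.00427, edgeR) and by 0.65 in n3315 (adjusted p = 0.00361, edgeR). *unc-40*, the DCC and neogenin receptor gene, was upregulated in n3315 against both other genotypes, by 0.77 over wild type (adjusted p = 0.00157, edgeR) and by 0.79 over *crh-1(syb385)* (adjusted p = 0.00526, edgeR), with 174 to 248 CPM in n3315 and 83.8 to 161 CPM in the other 8 libraries.

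Receptor traffic was represented by 7 genes of the retromer and the recycling endosome, which return BMP receptors to the membrane. Of these, 3 were upregulated in *crh-1(syb385)* and 4 in n3315, and 0 were downregulated, at medians of 0.24 and 0.30 on the log2 scale. Upregulated genes made up 7.42% and 20.3% of all tested genes. *rme-1*, which encodes an EHD-family ATPase of the recycling endosome, was at 161 to 241 CPM in wild type, 276 to 307 CPM in *crh-1(syb385)* and 314 to 328 CPM in n3315. It was upregulated by 0.49 (adjusted p = 0.00686, edgeR) and 0.61 (adjusted p = 0.00049, edgeR) on the log2 scale. *snx-3*, a sorting nexin gene, was upregulated by 0.40 (adjusted p = 0.00822, edgeR) and 0.26 (adjusted p = 0.0338, edgeR). The call of *snx-3* in n3315 was lost without any of wild-type replicates 1, 2 and 4 and n3315 replicates 1, 3 and 4 (adjusted p up to 0.0932, edgeR). *snx-1* passed in n3315 at 0.37 (adjusted p = 0.0153, edgeR), but not without n3315 replicate 4, and *arf-6* in *crh-1(syb385)* at 0.45 (adjusted p = 0.0455, edgeR), which 8 of the 12 fits without a single library lost. With total counts in place of TMM, 1 gene of this list (*rme-1*) passed in each mutant, and the medians were 0.09 and 0.12. Upper-quartile factors gave 2 genes in *crh-1(syb385)* and 1 in n3315, where 1026 and 2428 of all 14511 tested genes were upregulated. Fits on 2 genotypes gave 2 in each mutant, beside 750 of 13922 and 2420 of 14009 genes upregulated. The count in n3315 was also 1 without n3315 replicate 4, and 2 without n3315 replicate 1 or 3.

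Of the 3 other TGF-beta family ligand genes, *unc-129*, a BMP-like guidance factor of motor axons, was downregulated from 20.1 to 30.2 CPM in wild type to 11.6 to 15.7 CPM in *crh-1(syb385)* and 6.95 to 8.63 CPM in n3315. Its log2 fold changes were -0.87 (SE 0.15, adjusted p = 0.00142, edgeR) and -1.73 (SE 0.16, adjusted p = 1.89e-06, edgeR). It was also lower in n3315 than in *crh-1(syb385)*, by -0.85 on the log2 scale (adjusted p = 0.0032, edgeR). The counts of *tig-3* were 0 to 5 in wild type, 9 to 20 in *crh-1(syb385)* and 15 to 26 in n3315. It met the minimum count of 10 only through mutant libraries, the groups where it was high, so its test is no independent support for a rise. With that limit, its log2 fold changes were 2.50 (SE 0.64, adjusted p = 0.0145, edgeR) and 2.66 (SE 0.64, adjusted p = 0.00356, edgeR). The fit on wild type and *crh-1(syb385)* alone tested 2 of the 3 ligand genes, and 0 were upregulated. *tig-2* passed in neither mutant.

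The dauer branch shares *daf-4* with the DBL-1 branch. Of its 6 other genes, 2 changed in *crh-1(syb385)* (1 upregulated, 1 downregulated) and 4 in n3315 (3 upregulated, 1 downregulated), beside 16.3% and 42.0% of all tested genes. The count in *crh-1(syb385)* was 4 without wild-type replicate 3, where 27.5% of all tested genes passed, and 1 without *crh-1(syb385)* replicate 1. The ligand gene *daf-7* was upregulated from 0.637 to 2.05 CPM in wild type to 2.32 to 6.51 CPM in *crh-1(syb385)* and 4.75 to 6.36 CPM in n3315, at log2 fold changes of 1.58 (SE 0.35, adjusted p = 0.00675, edgeR) and 1.96 (SE 0.35, adjusted p = 0.000482, edgeR). The Smad gene *daf-14* was downregulated by 0.58 (adjusted p = 0.0159, edgeR) and 0.51 (adjusted p = 0.0119, edgeR), the former not without *crh-1(syb385)* replicate 1 (adjusted p = 0.0573, edgeR). The type I receptor gene *daf-1* and the Sno/Ski gene *daf-5* were upregulated in n3315, by 0.39 on the log2 scale (adjusted p = 0.0316, edgeR) and 0.46 (adjusted p = 0.00921, edgeR), and both were also higher there than in *crh-1(syb385)*. The call of *daf-1* was lost against wild type without wild-type replicate 2 or n3315 replicate 1, 3 or 4 (adjusted p up to 0.0895, edgeR), and against *crh-1(syb385)* without its replicate 1 or 3 (up to 0.0571). With total counts neither passed in n3315 against wild type, and the median of the 6 genes there was -0.07 in place of 0.11.

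Downstream genes were counted in 2 lists. Of 5 cuticle collagen genes tied to body length or to DBL-1 signalling, 1 was upregulated in *crh-1(syb385)* and 2 in n3315, and 0 were downregulated, beside 7.42% and 20.3% of all tested genes upregulated. *col-142* was upregulated from 75.1 to 111 CPM in wild type to 101 to 154 CPM in *crh-1(syb385)* and 139 to 230 CPM in n3315, at log2 fold changes of 0.60 (adjusted p = 0.0234, edgeR) and 0.98 (adjusted p = 0.000351, edgeR). This call of *col-142* in *crh-1(syb385)* was lost with total counts and without any of wild-type replicates 1 and 4 and *crh-1(syb385)* replicates 1, 2 and 4 (adjusted p up to 0.0776, edgeR), which left 0 of the 5 genes changed. *rol-6*, the collagen gene of the Roller phenotype, was at 0.280 to 1.58 CPM in wild type and 0.920 to 4.42 CPM in n3315, which overlapped, with a log2 fold change of 1.63 (SE 0.56, adjusted p = 0.0289, edgeR). It was lost, which left 1 of the 5 genes changed, without any of wild-type replicates 1, 2 and 4 and n3315 replicates 1 and 2 (adjusted p up to 0.142, edgeR).

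Of 12 immune and reporter genes, 7 had enough counts to be tested, and 2 of these were upregulated in each mutant, beside 7.42% of all tested genes in *crh-1(syb385)* and 20.3% in n3315. *spp-9* encodes a saposin-like protein and serves as a reporter that DBL-1 signalling holds down. It had 3 counts over the 4 wild-type libraries together, 44 in *crh-1(syb385)* and 49 in n3315. The ratio of rates was 15.96 (exact 95% confidence interval 5.12 to 80.3) in *crh-1(syb385)* and 16.3 (5.26 to 81.8) in n3315, where the intervals cover counting error only. *spp-9* met the minimum count of 10 only through mutant libraries, the groups where it was high, as no wild-type library had more than 2 counts. Its adjusted p-values of 0.00478 and 0.00147 (edgeR), from libraries with at most 22 counts, are therefore no independent support for a rise. The same limit holds for its place among the 2 upregulated genes of the list. *cnc-3*, a caenacin antimicrobial peptide gene, was upregulated at log2 fold changes of 1.25 (SE 0.37, adjusted p = 0.0318, edgeR) and 1.36 (SE 0.37, adjusted p = 0.00826, edgeR), from 0.392 to 1.79 CPM in wild type to 2.62 to 3.90 CPM and 2.30 to 4.55 CPM. The former was lost without any of *crh-1(syb385)* replicates 2, 3 and 4 (adjusted p up to 0.0813, edgeR), which left 1 gene of the list. Without wild-type replicate 3 the list had 3 upregulated genes in *crh-1(syb385)* and 4 in n3315, where 1764 and 3167 of all 14739 tested genes were upregulated.

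**Figure D5:**
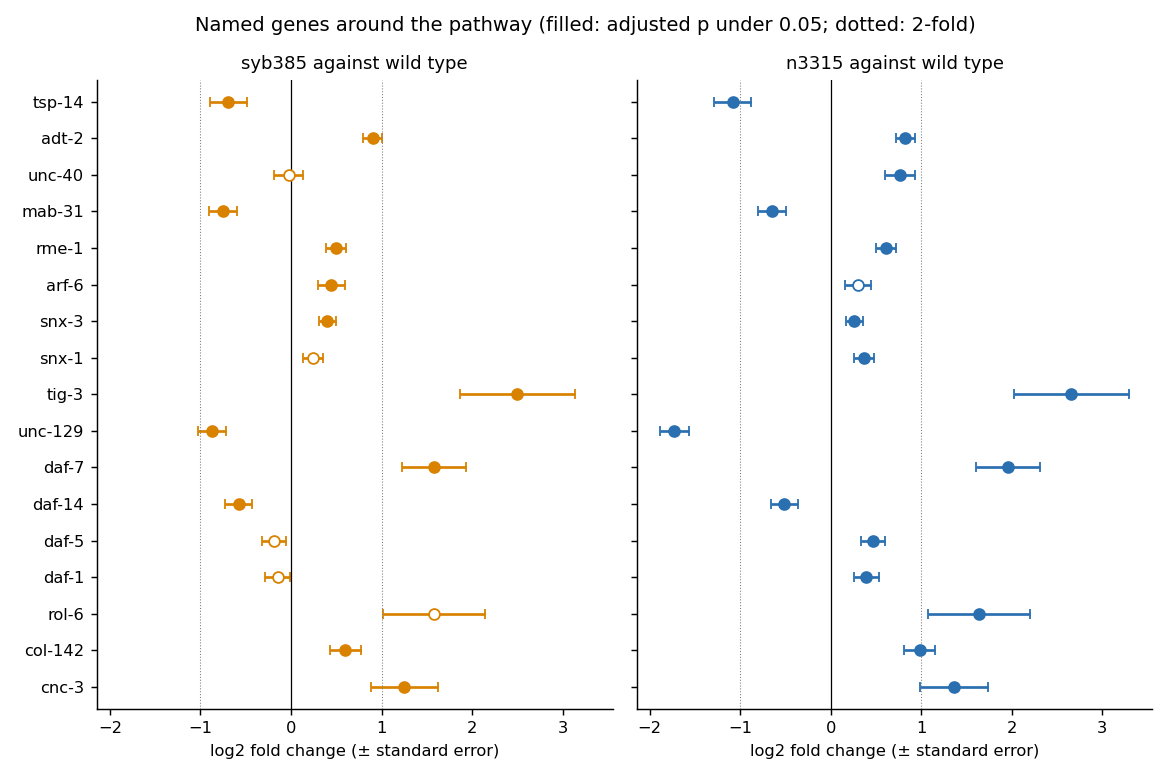
Log2 fold change with its standard error (x axis) of the named genes outside the 10 pathway members (y axis) in each mutant against wild type. Filled points have an adjusted p under 0.05 (edgeR), and dotted lines mark 2-fold. *unc-129* lies farthest left (-0.87 and -1.73) and *tig-3* farthest right (2.50 and 2.66), and *spp-9* is left out because wild type had 3 counts in all.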

How the data were processed

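Poly(A)-selected libraries of whole day-1 adults were sequenced from both ends. The aligner was STAR v2.7.5a with WBcel235 as the genome, and featureCounts v1.5.0 counted exonic reads by gene. The deposited values are raw counts, neither normalized nor pooled by the authors. Strand setting, annotation release and handling of multi-mapping reads are not given in the sources used here. No other column of values per sample was present, no batch is given in the labels, and the replicates are described as independent biological replicates.

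The 10 genes and all lists were chosen with earlier results of these data known. Counts were tested with edgeR v4.0.16 (R v4.3.3) on all 12 libraries, with TMM factors, genotype as the only term and genes kept by filterByExpr (minimum count 10, minimum total 15). Benjamini-Hochberg adjustment ran over 14511 genes, and a gene counted as changed at an adjusted p under 0.05. Standard errors are the absolute log2 fold change divided by the square root of F. Positions and exonic lengths are those of the table, and 43693 of its 46748 identifiers had a symbol in the reference name table. The intestinal marker *opt-2* was not matched. Replicates of a genotype differed by more than counting noise, so none was treated as a duplicate.

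Besides the 10 members and *crh-1*, the text names from each list at most 4 genes with an adjusted p under 0.05 in any comparison, by the largest absolute log2 fold change against wild type. The hypodermal marker *col-19*, *aak-1* and *tig-2* were named outside this rule, after their values were seen. Alternatives were DESeq2 v1.42.0, limma-voom (limma v3.58.1), other factors, removal of the length trend (loess, span 0.5), no filter, 2-fold rules, a replicate block, fits on 2 genotypes and fits without single libraries. A fit without wild-type replicates 1 and 3 was added after seeing the data. The model was tested on simulated data with known changes.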

Additional observations from a re-analysis of the deposited data

Results flagged for a closer look

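A sample far from the other 3 of its genotype was seen in 4 of the 96 groups of 4 libraries examined, where chance gives about 1 in 20. *sma-6* was at 11.2 CPM in *crh-1(syb385)* replicate 3, below the other libraries of that genotype at 14.1 to 14.4 CPM. *adt-2* was at 40.95 CPM in n3315 replicate 3, below 45.0 to 45.5 CPM in the others. *tig-3* was at 1.09 CPM in n3315 replicate 1, above 0.766 to 0.791 CPM in the others. *cnc-3* was at 0.392 CPM in wild-type replicate 1, below 1.63 to 1.79 CPM in the others.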

How the results depend on the processing

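Of the 10 genes, 4 passed in *crh-1(syb385)* against wild type. The count was 2 with a 2-fold rule added, 0 with 2-fold tested inside the model (glmTreat), 7 with total counts as the only scaling, 2 without the filter on low counts, 5 with DESeq2 or upper-quartile factors, 6 with the length trend removed, 3 on the libraries of these genotypes alone, and 2 to 6 without single libraries (2 without *crh-1(syb385)* replicate 4, 6 without wild-type replicate 3). Of all genes tested, 16.3% passed in the main fit, 6.72% with the 2-fold rule, 0.834% with glmTreat and 20.5% with total counts. The share was 9.94% without the filter, 20.7% with DESeq2, 16.6% with upper-quartile factors and 23.1% with the length trend removed. It was 11.5% on these genotypes alone, 10.4% without *crh-1(syb385)* replicate 4 and 27.5% without wild-type replicate 3. In n3315 against wild type the count was 4, with 1 under the 2-fold rule, 0 under glmTreat, 5 with upper-quartile factors, 6 with the length trend removed, 3 on the libraries of these genotypes alone and 3 to 5 without single libraries. The share of all genes tested was 42.0% in the main fit, 15.4% with the 2-fold rule, 4.31% with glmTreat and 42.1% with upper-quartile factors. It was 43.1% with the length trend removed, 37.9% on these genotypes alone and 34.2% to 43.4% without single libraries. Between the mutants the count was 0, with 2 under DESeq2, 1 each under limma-voom, upper-quartile factors, total counts, removal of the length trend and no filter, 5 on the mutant libraries alone, 5 without wild-type replicates 1 and 3, and 0 to 5 without single libraries (2 without wild-type replicate 1, 5 without wild-type replicate 3, 1 without *crh-1(syb385)* replicate 4). Of all genes tested, 18.0% passed in the main fit, 22.7% with DESeq2, 17.1% with limma-voom, 18.5% with upper-quartile factors and 17.9% with total counts. The share was 18.1% with the length trend removed, 11.4% without the filter and 37.7% on the mutant libraries alone. It was 31.7% without wild-type replicates 1 and 3, 21.3% without replicate 1 alone, 29.9% without replicate 3 alone and 11.7% without *crh-1(syb385)* replicate 4. The call of *lon-1* and *sma-10* in *crh-1(syb385)*, and of *sma-2* and *sma-6* in n3315, was lost only under the 2-fold rules. *sma-9* in n3315 was reversed with the length trend removed (-0.36), and the cause was not tested. With total counts, the median log2 fold change of all genes was -0.19 in *crh-1(syb385)* and -0.22 in n3315, against -0.05 and -0.04 with TMM, and the genes called split into 661 higher and 2316 lower, and 1846 higher and 4402 lower, against 1077 and 1289, and 2947 and 3148. With upper-quartile factors those between the mutants split into 1259 higher and 1422 lower, against 1541 and 1077.

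The replicate numbers did not pair the libraries: deviations of same-numbered libraries correlated at -0.08 to 0.12, and 5 of 24 correlated best with their own number. The fit with a replicate block gave 4, 4 and 0 pathway genes, and it lost the calls of *tsp-14* (adjusted p = 0.0522, edgeR) and *col-142* (adjusted p = 0.054, edgeR) in *crh-1(syb385)* and of *rol-6* (adjusted p = 0.0532, edgeR) in n3315.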

Other observations

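*lon-1* had the largest change among the pathway genes that passed, and the genes with the most similar pattern were found by the root mean square difference of centred log2 CPM over the 12 libraries. Among 12501 genes with a mean of at least 1 CPM, where the median difference was 0.646, the closest were *aat-4* (0.1252), *Y57G11B.5* (0.132) and *T15B7.1* (0.151). *aat-4* was at 6.52 ± 2.75 CPM in wild type, 12.45 ± 1.08 in *crh-1(syb385)* and 8.79 ± 0.34 in n3315 (SD, n = 4). *Y57G11B.5* was at 79.0 ± 29.4, 170 ± 5.63 and 121 ± 10.4 CPM in the same order, and *T15B7.1* at 42.0 ± 19.2, 82.0 ± 5.68 and 56.4 ± 3.93 CPM.

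The coefficient of variation of the 10 pathway genes was often larger in wild type than in either mutant, though not for *sma-2* or *sma-4*. For *sma-4* it was 6.71% in wild type, 6.75% in *crh-1(syb385)* and 5.41% in n3315, while its SD was largest in wild type. This was not particular to the pathway. Over the tested genes, chi-square per degree of freedom between 2 replicates was 28.3 to 132.7 in wild type. It was 6.47 to 24.6 in *crh-1(syb385)* and 12.2 to 38.3 in n3315. The coefficient of variation of *sma-9* was 32.9% in wild type, 5.86% in *crh-1(syb385)* and 13.7% in n3315, and that of *lon-1* was 32.8%, 6.26% and 7.57%.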
